A study of Mus musculus with 2 samples.

Results

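The nuclear-encoded genes of the mitochondrial respiratory chain were followed across cell types, diet and genotype in scRNA-seq of liver innate immune cells. Members were the rows of the mRNA count matrix whose symbol starts with Nduf, Sdh, Uqcr, Cox4i, Cox5, Cox6, Cox7, Cox8 or Atp5 and that reached 500 counts over the 4 mice. This rule kept 97 of the 106 rows with these prefixes, out of 25909 genes. By the complex they belong to, 48 were genes of complex I, 8 of complex II, 8 of complex III, 15 of complex IV and 18 of complex V. The 13 protein genes of the mitochondrial genome, the mt- genes, were set beside them. The 9 rows left out ranged from Ndufs6b with 9 counts to Ndufab1-ps with 412, and the members nearest to the limit were Cox6a2 with 622 counts, Ndufaf5 with 785 and Ndufs5-ps with 1167.

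The cells came from 4 male mice, 1 per group, and per the study's methods CDA-HFD feeding began at 6 to 12 weeks of age. An Egr2fl/fl and a Lyz2Cre/+.Egr2fl/fl mouse were on normal diet (ND), and another of each genotype received CDA-HFD over 7 weeks. CDA-HFD is a high-fat diet without choline, with L-amino acids in place of protein, used as a model of metabolic dysfunction-associated steatohepatitis (MASH). All 4 mice carried loxP-flanked Egr2, and in the Lyz2Cre/+.Egr2fl/fl mice Cre is expressed from the Lyz2 locus, which is active in myeloid cells, so that cells outside this lineage keep the gene. Liver leukocytes were sorted as CD45.2+ CD11b+ cells negative for CD90.2, B220, NK1.1 and SiglecF, tagged with 1 hashtag per mouse and pooled. Values of the 4 mice are given in this order throughout: ND Egr2fl/fl, ND Lyz2Cre/+.Egr2fl/fl, CDA-HFD Egr2fl/fl and CDA-HFD Lyz2Cre/+.Egr2fl/fl. A group is a single mouse, so differences between groups were not tested and cannot be told apart from differences between individual mice. Intervals are exact 95% intervals of the summed counts and cover counting error only.

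The respiratory chain passes electrons from NADH (complex I, NADH dehydrogenase) and from succinate (complex II, succinate dehydrogenase) through ubiquinone to complex III (cytochrome bc1) and by cytochrome c to complex IV (cytochrome c oxidase), and complex V (ATP synthase) uses the proton gradient that results. Complex II also belongs to the TCA cycle and is the complex whose subunits are all encoded in the nucleus. The other complexes combine nuclear and mitochondrial products, so both genomes have to be expressed. In macrophages, oxidative phosphorylation is known to go with tissue residence and repair, whereas inflammatory activation moves metabolism towards glycolysis, and mature neutrophils are known to contain few mitochondria and to rely on glycolysis.

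Nuclear respiratory chain genes are textbook targets of the transcription factors NRF1, GABP (an ETS-family factor), YY1 and the estrogen-related receptors (ERR). Promoters from 250 bases before to 50 bases after the transcription start were available from RefSeq (GRCm38.p6) for 78 of the 97 members. The letters searched on both strands were GCATGCGC for NRF1, CCGGAAG for ETS, AAGATGGC for YY1 and AAGGTCA for ERR, none of which contains another. NRF1 letters were found in 12 of 78 member promoters (15.4%) against 3.05% of all 27025 genes with a promoter, and ETS letters in 22 (28.2%) against 9.93%. YY1 letters were found in 11 (14.1%) against 3.19%, and ERR letters in 8 (10.3%) against 5.38%. At least 1 of the 4 motifs was found in 42 member promoters (53.8%) and in 19.7% of all promoters. Member promoters also had a higher median GC content, 58.8% against 52.8% of all promoters, and the part of base composition in the shares was not tested. ETS letters occurred in 5 of 7 promoters of complex II genes and YY1 letters in 8 of 40 of complex I and 3 of 15 of complex V, whereas none of the promoters of complexes II, III and IV held the YY1 letters. A match is a description of these letters and not a bound site.

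The 5 promoters below belong to genes on which the results turn: Cox5a with the lowest CDA-HFD to ND ratio, 3 genes of complex II, and Uqcrh, the complex III gene with the highest counts. They are printed 5′ to 3′ on the strand of the gene, with matches to the searched motifs on either strand in capitals. Cox5a lies at chr9:57520982-57521281 on the plus strand and Sdhb at chr4:140961021-140961320 on the plus strand. Sdhd lies at chr9:50603800-50604099, Sdhaf1 at chr7:30322326-30322625 and Uqcrh at chr4:116075021-116075320, each on the minus strand.
Cox5a: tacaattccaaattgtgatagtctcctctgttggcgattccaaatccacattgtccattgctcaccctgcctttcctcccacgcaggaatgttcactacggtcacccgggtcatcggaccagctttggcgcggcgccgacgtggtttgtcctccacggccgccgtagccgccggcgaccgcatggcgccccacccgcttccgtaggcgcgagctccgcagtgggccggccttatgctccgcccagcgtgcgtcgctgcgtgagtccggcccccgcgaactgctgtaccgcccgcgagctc
Sdhb: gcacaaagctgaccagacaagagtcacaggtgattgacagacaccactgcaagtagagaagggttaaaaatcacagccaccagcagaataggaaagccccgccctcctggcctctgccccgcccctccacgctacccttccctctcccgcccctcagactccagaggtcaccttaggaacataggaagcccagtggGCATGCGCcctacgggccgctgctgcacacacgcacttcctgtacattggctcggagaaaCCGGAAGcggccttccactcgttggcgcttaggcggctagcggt
Sdhd: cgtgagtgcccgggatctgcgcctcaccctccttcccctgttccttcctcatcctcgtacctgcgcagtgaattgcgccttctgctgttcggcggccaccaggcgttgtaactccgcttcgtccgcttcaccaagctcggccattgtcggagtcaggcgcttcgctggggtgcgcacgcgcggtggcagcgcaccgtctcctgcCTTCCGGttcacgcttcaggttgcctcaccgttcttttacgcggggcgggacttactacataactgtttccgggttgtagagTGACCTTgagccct
Sdhaf1: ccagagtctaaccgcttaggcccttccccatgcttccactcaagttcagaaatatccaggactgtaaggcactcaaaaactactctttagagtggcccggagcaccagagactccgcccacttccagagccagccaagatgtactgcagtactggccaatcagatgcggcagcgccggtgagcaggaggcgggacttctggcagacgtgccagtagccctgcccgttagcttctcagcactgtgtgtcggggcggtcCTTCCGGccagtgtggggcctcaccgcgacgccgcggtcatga
Uqcrh: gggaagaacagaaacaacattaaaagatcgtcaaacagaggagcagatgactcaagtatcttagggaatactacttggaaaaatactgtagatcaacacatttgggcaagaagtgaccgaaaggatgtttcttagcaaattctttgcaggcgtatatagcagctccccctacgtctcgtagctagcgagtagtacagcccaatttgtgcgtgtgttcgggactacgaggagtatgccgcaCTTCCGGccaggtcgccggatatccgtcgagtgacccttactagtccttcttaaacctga
The Cox5a window holds none of the 4 motifs. It surrounds a start site inside the RefSeq gene record, which begins further upstream at position 57517328, and the sequence at that other start was not searched. That of Sdhb holds the NRF1 letters from position -54 and the ETS letters from position 7 relative to the start site. In Sdhd the ETS letters lie at -46 and the ERR letters at 37, in Sdhaf1 the ETS letters lie at 8, and in Uqcrh at -10, all on the opposite strand.

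The number of cells was 1723, 1590, 5885 and 6186, with 27840300 to 90124521 counts per mouse and median counts per cell from 13168 to 16459. Egr2 itself was at 13.3, 5.85, 49.4 and 18.2 CPM (counts scaled to a total of 1000000), lower in the Lyz2Cre/+.Egr2fl/fl mouse of each diet. Cells were assigned to classes by marker genes, and 3222 of 15384 cells passed no gate. The classes that mattered most here were Kupffer cell-like (1625 cells, 5 of 5 independent check markers raised), hLAM-like (937, hepatic lipid-associated macrophages, 4 of 4), moKC-like (234, monocyte-derived Kupffer cells, 1 of 3), Ly6Chi monocyte-like (2214, 4 of 4), Ly6Clo monocyte-like (1529, 4 of 4), neutrophil-like (1918, 3 of 4) and Cd209a dendritic cell (DC)-like cells (867, 2 of 4). Of the macrophage-gated cells that matched none of these, 1698 were led by Tmem119, Olfml3 and Ms4a7 and are called unnamed macrophages. In them 1 of 5 macrophage gate markers and none of 4 check markers were raised. A marker counted as raised at no less than 2 times the other cells, with counts in at least 20% of the cells of the class. Kupffer cell-like cells were 44.3% and 51.6% of the cells on ND and 0.170% and 0.485% on CDA-HFD, and the 9 Kupffer cell markers summed to 10490, 12319, 140.7 and 223.9 CPM over all cells.

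Summed over all cells of a mouse, the 97 nuclear-encoded members took 18553 (18506 to 18600), 18021, 17820 and 17972 CPM, that is, between 1.78% and 1.86% of all mRNA counts. Per cell, their share was 1.78% ± 0.477 (SD over cells), 1.70% ± 0.445, 1.64% ± 0.493 and 1.69% ± 0.462. The mt- protein genes took 20912, 20886, 19366 and 20271 CPM, and the nuclear to mt- ratio was 0.887, 0.863, 0.920 and 0.887. Complex IV genes summed to 5989, 5827, 5628 and 5628 CPM, complex I genes to 5470, 5417, 5095 and 5212 and complex V genes to 4644, 4439, 4798 and 4829. Complex III genes summed to 1798, 1664, 1760 and 1756 CPM and complex II genes to 653.0, 674.2, 539.9 and 545.8. Levels were compared mainly between cells and mice, and levels of different genes were set side by side only as descriptions.

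Cell classes differed mainly through neutrophil-like cells. Within a mouse the highest class was 1.73 to 2.19 times neutrophil-like cells, but 1.29 to 1.34 times the next lowest class. Single classes also differed between mice, such as neutrophil-like cells with 9406 to 12388 CPM. In classes with at least 50 cells of a mouse, the summed level of the members ranged from 9406 CPM in neutrophil-like cells of the CDA-HFD Egr2fl/fl mouse to 21701 in Xcr1 DC-like cells of the ND Egr2fl/fl mouse. Proliferating cell-like cells were at 21355, 20568 and 21135 CPM (3 mice) and Ly6Chi monocyte-like cells at 20762, 20214, 19212 and 19542. hLAM-like cells were at 19353 and 18883 CPM (CDA-HFD), and Kupffer cell-like cells at 17889 and 18289 (ND). Ly6Clo monocyte-like cells lay between 17442 and 17907 CPM, moKC-like cells at 17470 and 16894, unnamed macrophages between 15062 and 17632, Cd209a DC-like cells between 16566 and 16918 and mature DC-like cells, marked by Ccr7, at 15955 and 15733. Neutrophil-like cells were the lowest class in each of the 4 mice. Neighbours in the middle of the order changed places from mouse to mouse, such as hLAM-like and Ly6Chi monocyte-like cells on CDA-HFD, or unnamed macrophages and Cd209a DC-like cells on ND. The level also varied with counts per cell: in Kupffer cell-like cells it was 17026 CPM in the third of cells with the fewest counts and 18803 in the third with the most, and in hLAM-like cells 17608 and 20029. In Ly6Chi monocyte-like cells it was 19418 and 19551. In neutrophil-like cells it was 9977, 9389 and 10667, from the cells with the fewest counts to those with the most. Each of these neutrophil-like values lay below those of the other classes. The cells were grouped by counts within each class, so classes were not compared at matched depth.

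**Figure D1:**
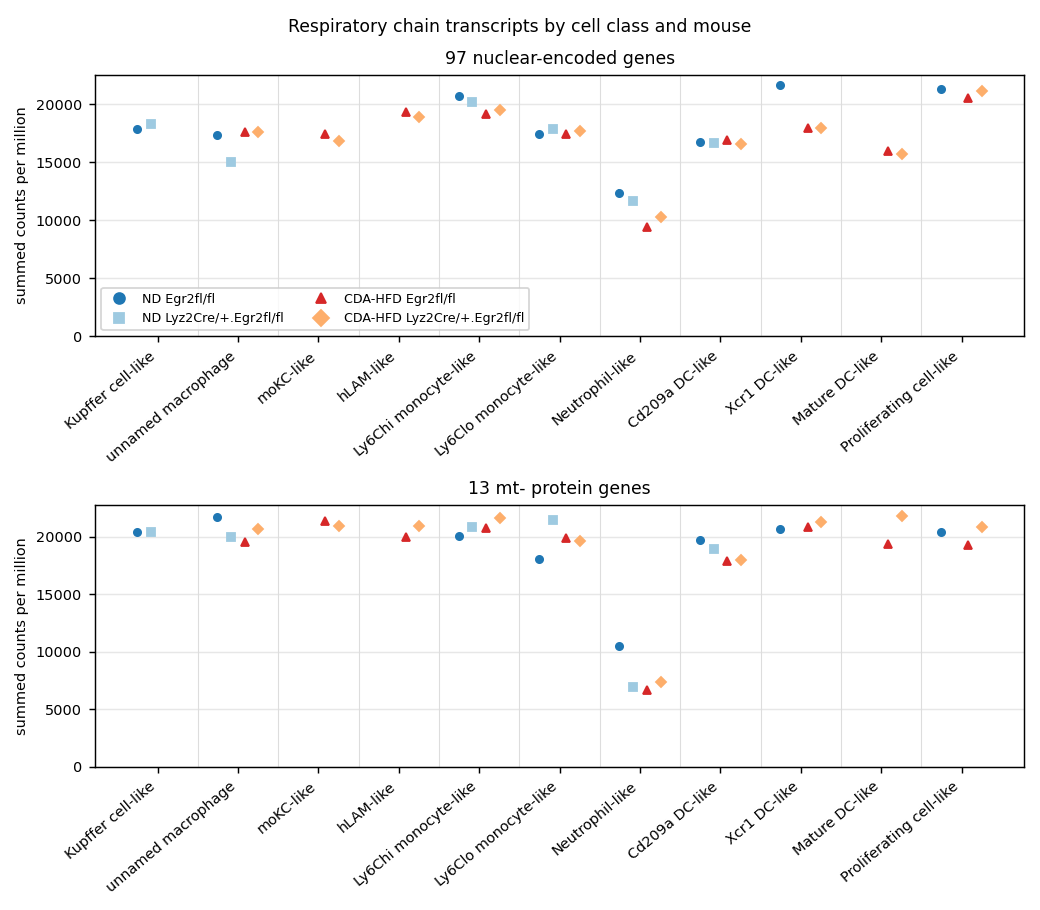
Summed CPM of the 97 nuclear-encoded respiratory chain genes (top) and of the 13 mt- protein genes (bottom) by cell class, 1 point per mouse with at least 50 cells of the class; bars are exact Poisson 95% intervals and are mostly smaller than the points. Neutrophil-like cells sit at 9406 to 12388 CPM in the top panel and 6689 to 10499 in the bottom panel, below the other classes in both.

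Neutrophil-like cells had the lowest levels of both genomes, 12388 (12068 to 12714), 11687, 9406 and 10283 CPM of nuclear members and 10499, 6959, 6689 and 7341 CPM of mt- protein genes, which in the other classes of the plot lay between 17925 and 21776. The nuclear to mt- ratio in them was 1.18, 1.68, 1.41 and 1.40, above that of every other class shown, 0.722 to 1.07. Compared with the other gated classes of the same mouse, the summed nuclear ratio was 0.675 (0.657 to 0.692), 0.641, 0.512 and 0.562, and 75 of 97 members were lower in each of the 4 mice, 1 was higher and 21 were mixed. Much of this was shared by other genes: 51.1% of 11842 genes with at least 500 counts were also lower in each mouse and 17.5% higher. The median of all these genes had a ratio of 0.547, 0.563, 0.633 and 0.642, against 0.520, 0.564, 0.463 and 0.515 for the median member. Divided by the median gene, the summed ratio was 1.23 and 1.14 in the ND mice and 0.810 and 0.875 in the CDA-HFD mice, so its direction depended on the reference. Among genes with at least 10000 counts, the median of the 77 members was 0.594, 0.610, 0.462 and 0.503, below the median of all 3165 such genes, 0.652, 0.653, 0.636 and 0.653, in each mouse. The 10 genes with the highest counts in neutrophil-like cells, led by S100a9 and S100a8, held 21.1% to 22.5% of their counts, against 11.6% to 12.4% for the 10 highest genes of the other classes. Neutrophil-like cells also had fewer counts per cell, with a median of 4046, or 0.297 of the median of their own mouse, and the part of depth in these ratios was not tested.

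The mt- protein genes were lower in neutrophil-like cells by more than the median gene. Their summed ratio was 0.50, 0.328, 0.335 and 0.353, each of the 13 was lower in each mouse, and divided by the median gene the ratio stayed under 1 (0.914, 0.583, 0.530 and 0.550). The mitochondrial rRNA mt-Rnr2 went the other way, with 3694 CPM in neutrophil-like cells of all mice together against 1090 to 2370 in the other leukocyte classes. Among the nuclear members with counts in each mouse, the lowest ratios belonged to complex I genes. Ndufa5, an accessory subunit, was at 0.191, 0.0801, 0.159 and 0.235 of the other classes, Ndufa12 at 0.130, 0.166, 0.181 and 0.196 and Ndufc2 at 0.207, 0.152, 0.144 and 0.232. In complex III, Uqcrb was at 0.199, 0.204, 0.293 and 0.254, and in complex V the c-ring genes Atp5g1, Atp5g2 and Atp5g3 lay between 0.181 and 0.358. These ratios lie below the median gene of each mouse. The member that was higher in each mouse was Sdhaf2, an assembly factor that attaches FAD to Sdha, with 54.3, 51.7, 42.8 and 49.8 CPM in neutrophil-like cells and 39.5, 39.6, 33.0 and 33.3 CPM over all cells. Ndufa7 showed the narrowest range of all members over classes with the mice pooled, from 193 CPM in B cell-like to 259 in Ly6Chi monocyte-like cells, and per mouse had 328, 274, 224 and 239 CPM in neutrophil-like cells.

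**Figure D2:**
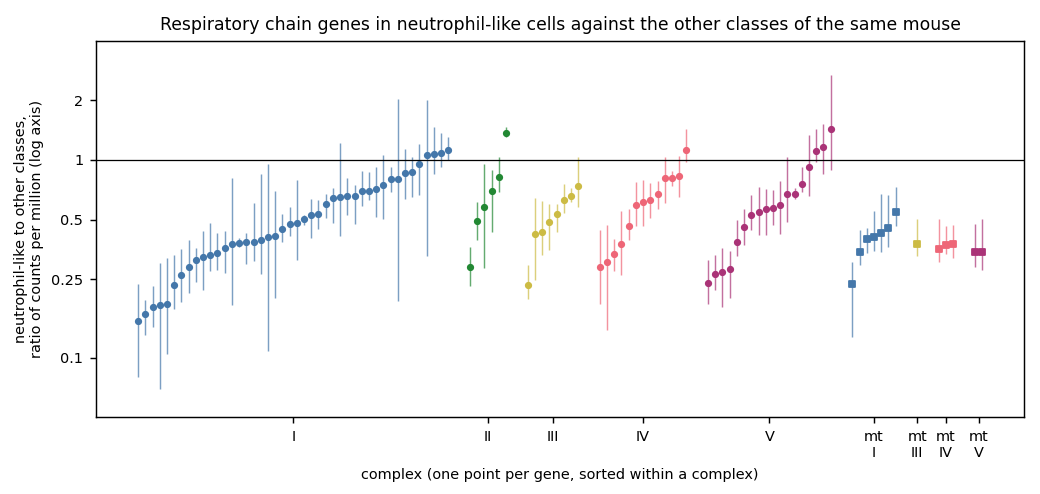
Ratio of CPM in neutrophil-like cells to the other gated classes of the same mouse for each gene (log axis), sorted within complexes; points are geometric means and lines the range over the 4 mice, circles nuclear and squares mt- genes, and the 8 members with a count of 0 in a mouse are left out. All 13 mt- genes lie below 1 in each mouse, while nuclear genes range from Ndufa5, at 0.0801 to 0.235, to genes above 1.

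Ndufa4 and AA467197 showed opposite patterns over the classes. Ndufa4 is a subunit of complex IV, and AA467197 (not a member) is its paralog, known to replace it in inflammatory settings. Ndufa4 was at 113, 143, 88.1 and 133 CPM in neutrophil-like cells, lower than the 384 and 413 CPM in Kupffer cell-like cells on ND. AA467197 was at 189, 178, 301 and 347 CPM in neutrophil-like cells and at 1.48 and 1.23 CPM in Kupffer cell-like cells. In mature DC-like cells AA467197 reached 231 and 411 CPM (CDA-HFD), and in Cd209a DC-like cells 73.9, 59.5, 91.2 and 158. The levels of the 2 genes were not compared with each other.

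Kupffer cell-like cells stood out by 1 gene of complex IV, Cox5a, a subunit on the matrix side that sits next to Cox4i1. It was at 1154 (1139 to 1170) and 1172 (1156 to 1187) CPM in Kupffer cell-like cells on ND, which was 2.45 (2.38 to 2.53) and 2.59 (2.50 to 2.68) times the level of the other classes of the same mouse, and 2.53 and 2.62 times when divided by the median gene. The few Kupffer cell-like cells left on CDA-HFD, 10 and 30, had 1154 and 960 CPM. moKC-like cells came next with 700 and 754 CPM on CDA-HFD, then proliferating cell-like, mature DC-like (553 and 581) and hLAM-like cells (530 and 509). Ly6Chi monocyte-like cells had 391, 378, 365 and 397 CPM of Cox5a, Ly6Clo monocyte-like cells 393, 441, 441 and 454, and neutrophil-like cells 196, 184, 209 and 185. The intervals of the Ly6Chi and Ly6Clo monocyte-like cells overlapped on ND, while those of Kupffer cell-like cells lay above every other class. Over all 97 members Kupffer cell-like cells were not raised as a set: 37 were higher in both ND mice, where 39.0% of all genes were, 32 were lower, where 42.9% of all genes were, and the summed ratio was 0.943 and 1.05. Complex II genes were higher in them, 6 of 8 members in both mice with a summed ratio of 1.23 and 1.29, whereas complex V genes had 0.833 and 0.952. Uqcrb followed Cox5a in Kupffer cell-like cells with 385 and 381 CPM, 1.60 and 1.69 times the other classes.

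**Figure D3:**
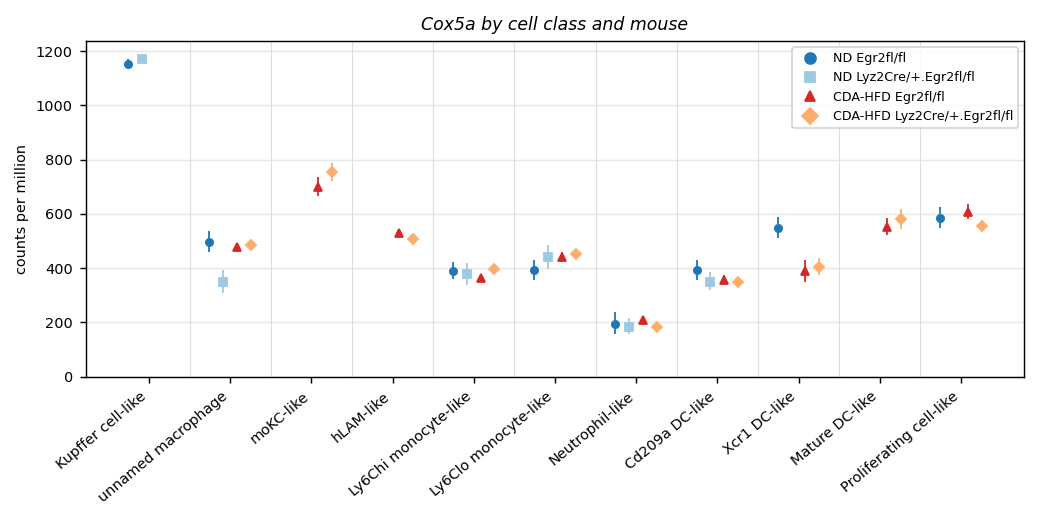
Cox5a in CPM by cell class, 1 point per mouse with at least 50 cells of the class, with exact Poisson 95% intervals. Kupffer cell-like cells of the ND mice lie at 1154 and 1172 CPM, moKC-like cells of the CDA-HFD mice at 700 and 754, and neutrophil-like cells at 184 to 209.

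hLAM-like cells of the CDA-HFD mice had higher levels of most members. The summed ratio to the other classes was 1.11 and 1.07, and 72 of 97 members were higher in both mice, against 34.7% of all genes. The median member was at 1.18 and 1.12, while the median of all genes was 0.961 and 0.956. Complex II had the largest ratio, 1.23 and 1.18, with Sdhaf4 at 1.72 and 1.49, and complex I genes were at 1.15 and 1.10, with Ndufa12 at 1.64 and 1.77 and Ndufa5 at 1.65 and 1.35. Sdhaf1 (0.396 and 0.430) and Ndufaf7 (0.334 and 0.432), both assembly factors, went the other way. The mt- genes were at 1.06 and 1.05 in sum. hLAM-like cells also had more counts per cell than the median of their mouse, by 1.73 times, and the part of depth was not tested.

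Proliferating cell-like and Ly6Chi monocyte-like cells also had raised sums, and Xcr1 DC-like cells had the highest sum in the ND Egr2fl/fl mouse but 17946 and 17931 CPM in the CDA-HFD mice. In proliferating cell-like cells 56 of 97 members were higher in each of 3 mice, where 26.4% of all genes were, and the summed ratio was 1.18, 1.17 and 1.20. Of the 18 complex V genes, 15 were higher in each of these mice, among them Atp5g2 of the c-ring at 1.87, 1.42 and 1.46 and Atp5o of the peripheral stalk at 1.51, 1.54 and 1.59. These cells had the most counts, with a median of 28060 per cell, and the part of depth was not tested. In Ly6Chi monocyte-like cells 43 of 97 members were higher in each of 4 mice, against 18.1% of all genes, with summed ratios of 1.15, 1.13, 1.10 and 1.12 at a depth close to their mouse (0.951 of the median). Complex III was at 1.21, 1.26, 1.22 and 1.20 there, with Uqcrh, the hinge protein of cytochrome bc1, at 834, 876, 785 and 761 CPM against 563, 469, 614 and 617 over all cells. Uqcrfs1, the Rieske iron-sulfur protein, was at 1.52, 1.94, 1.48 and 1.35 of the other classes. Cox5a was lower there, at 0.413, 0.386, 0.771 and 0.838. Complex II was the exception among the complexes, with 0.966, 0.984, 0.935 and 1.00.

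Cd209a and mature DC-like cells had low sums. In Cd209a DC-like cells 44 of 97 members were lower in each of 4 mice, where 34.5% of all genes were, and complex II was lowest at 0.746, 0.679, 0.856 and 0.793. The summed ratio, 0.916, 0.924, 0.947 and 0.920, lay above that of the median gene, 0.807, 0.832, 0.906 and 0.898. In mature DC-like cells 63 of 97 members were lower in both CDA-HFD mice, where 55.1% of all genes were, and the median member (0.805 and 0.849) lay above the median gene (0.772 and 0.774), so the low level there was no larger than that of other genes. Complex I was at 0.797 and 0.759 of the other classes. Against this, Sdhaf1, which helps to insert iron-sulfur clusters into Sdhb, was at 147 and 195 CPM in mature DC-like cells, 5.85 and 7.80 times the other classes, and at 105 and 225 CPM in the 21 and 12 such cells of the ND mice. Ly6Clo monocyte-like cells held 39.9, 27.4, 48.0 and 51.9 CPM of Sdhaf1, and Kupffer cell-like cells 12.1 and 16.6.

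Most members varied moderately between classes, and the widest ranges belonged to assembly factors and rare isoforms. Over 14 classes with all mice pooled, the highest level was a median of 2.77 times the lowest for 95 members, under 2 times for 19 and at least 5 times for 15. Of the 97 members 74 were lowest in neutrophil-like cells, while 25 were highest in proliferating cell-like, 20 in T or NK cell-like and 18 in endothelial cell-like cells. T or NK, B and endothelial cell-like cells, of types that the sort was set to remove, numbered 113, 64 and 100 over all mice and stayed under 50 per mouse, so that highest levels in them rest on few cells. Sdhaf4, which protects Sdha before it joins Sdhb, ranged 19.8-fold, from 2.91 CPM in neutrophil-like to 57.5 in B cell-like cells. Cox6b2, an isoform of Cox6b1 known from testis, ranged 18.5-fold, from 2.24 CPM in neutrophil-like to 41.5 in Cd209a DC-like cells. Per mouse it was at 80.9, 53.9, 25.4 and 45.7 CPM in Cd209a DC-like cells and at 27.5, 42.8, 25.4 and 19.5 in Ly6Chi monocyte-like cells, so that the 2 classes overlapped. Sdhaf1 ranged 15.2-fold. For Cox6a2 and Ndufaf6, which had no count in a class, the range was at least 6.61-fold and at least 3.98-fold, taking 3 counts as the floor of that class. The narrowest ranges after Ndufa7 (1.34-fold) were those of Cox8a (1.60), Cox6b1 (1.61), Atp5l2-ps (1.73) and Uqcrq (1.79).

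**Figure D4:**
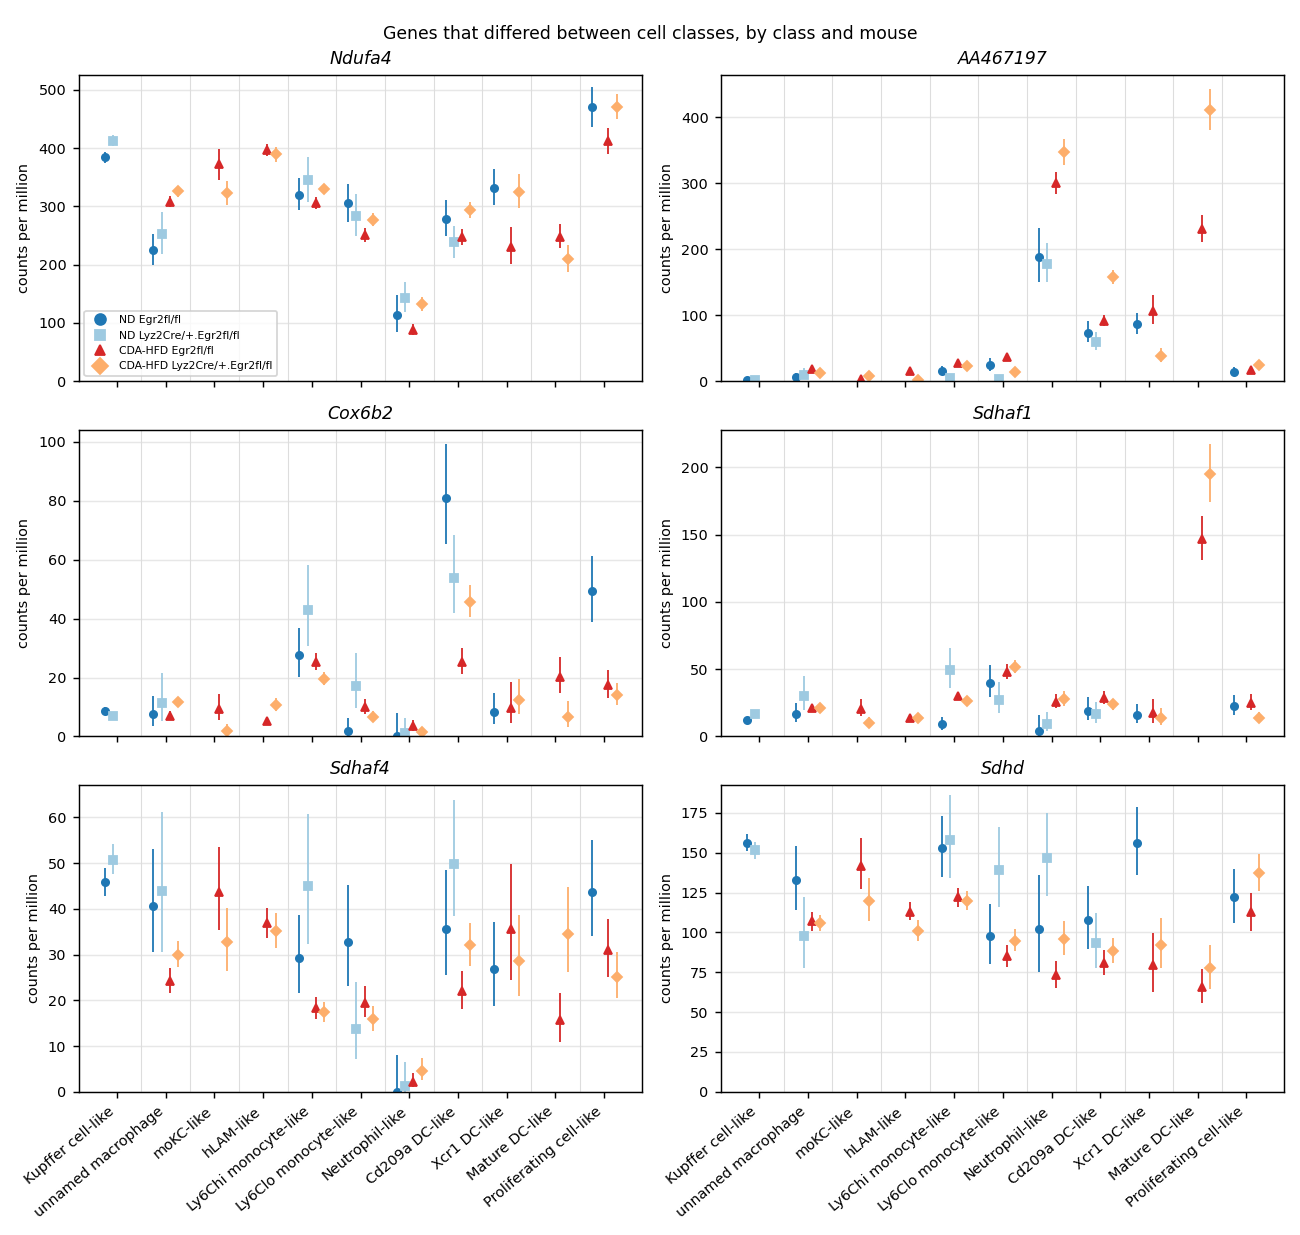
Ndufa4, its paralog AA467197, Cox6b2, Sdhaf1, Sdhaf4 and Sdhd in CPM by cell class, 1 point per mouse with at least 50 cells of the class, with exact Poisson 95% intervals. AA467197 lies at 178 to 347 CPM in neutrophil-like and at 1.23 and 1.48 in Kupffer cell-like cells, Ndufa4 at 88.1 to 143 and at 384 and 413, Cox6b2 in Cd209a DC-like cells at 25.4 to 80.9 and in Ly6Chi monocyte-like cells at 19.5 to 42.8, and Sdhaf1 in mature DC-like cells at 147 and 195.

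Tissue isoforms were represented by their common form. Of the lung isoform Cox4i2 there were 83 counts over all mice, of Cox7a1, known from heart and muscle, 235 and of Ndufa4l2 27, all under the limit for members. Cox4i1 had 939, 908, 1128 and 1097 CPM, Cox6a1 611, 617, 500 and 516, and Cox6a2, the heart and muscle form, 0.905, 1.26, 2.57 and 3.76. Cox6b1 had 544, 504, 570 and 574 CPM and Cox6b2 14.6, 12.9, 14.3 and 14.8. Cox7a2 had 327, 298, 302 and 300 CPM, Cox7a2l, classed here as a supercomplex factor, 354, 320, 370 and 374, and Cox8a 578, 543, 562 and 565. The 3 c-ring genes encode the same mature protein. Atp5g1 had 271, 288, 321 and 314 CPM, Atp5g2 272, 261, 312 and 317, and Atp5g3 204, 191, 179 and 177, so that Atp5g1 and Atp5g2 were higher and Atp5g3 lower in both CDA-HFD mice. With TMM scaling, explained below for the diets, Atp5g3 is no longer lower in the Lyz2Cre/+.Egr2fl/fl mice. The pseudogenes or retrocopies among the members, Ndufb4c, Ndufs5-ps, Ndufa12-ps, Cox7c-ps1 and Atp5l2-ps, may share reads with their parent genes and their values are uncertain. Ndufb1-ps is named a protein-coding gene, Ndufb1, by RefSeq.

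Between diets, the summed level of the members differed little and individual genes differed in both directions. Over all cells, the CDA-HFD to ND ratio of the sum was 0.961 (0.958 to 0.963) in Egr2fl/fl and 0.997 (0.994 to 1.00) in Lyz2Cre/+.Egr2fl/fl mice, and that of the mt- protein genes 0.926 and 0.971. With TMM scaling, which multiplied diet ratios by 1.11 and 1.12 (log2 shifts of 0.15 and 0.16), the ratios of the nuclear sum were 1.06 and 1.12, so its direction depended on the scaling. Multiplied by these factors, the ratios of complex II stay under 1, while those of complexes I, III, IV and V and of the mt- genes lie above 1 in both genotypes. Of the 95 members with at least 500 counts in the Egr2fl/fl mice, 1 was at least 25% higher and 11 were at least 20% lower on CDA-HFD, where 18.8% and 32.7% of 10091 genes were. In Lyz2Cre/+.Egr2fl/fl mice 5 and 13 of 95 members passed these limits, as did 19.1% and 33.6% of 10194 genes. With TMM the members past these limits were 12 and 6 in Egr2fl/fl and 22 and 4 in Lyz2Cre/+.Egr2fl/fl mice, and the genes 26.4% and 22.8%, and 26.7% and 22.6%. The median member had a ratio of 0.956 and 0.968, above the median gene at 0.917 and 0.912.

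Several levels differed between the diets, that of the neutrophil markers mainly in the Egr2fl/fl mice. Kupffer cell-like cells were the main class on ND and nearly absent on CDA-HFD, the 9 neutrophil markers summed to 2198, 4735, 5351 and 5178 CPM, the 8 endothelial markers to 343.4, 508.5, 51.11 and 87.71, the 7 hepatocyte markers to 592.4, 938.5, 281.3 and 263.6, and the 5 erythroid markers to 279.7, 208.8, 0 and 1.198. The 9 T or NK cell markers summed to 293.7, 171.2, 143.4 and 134.7 CPM and the 6 B cell markers to 76.55, 59.09, 25.87 and 35.41. The 10 genes of a dissociation and stress list (Fos, Jun, Hspa1a and others) summed to 1371, 1280, 5656 and 4096 CPM, 4.12 and 3.20 times as high on CDA-HFD. Their part in the differences between diets was not tested, except where values within classes are given. Within the 7 classes with at least 50 cells in both Egr2fl/fl mice the geometric mean of the ratios of the sum was 0.923 (0.917 to 0.929), from 0.759 in neutrophil-like cells and 0.827 in Xcr1 DC-like cells to 1.01 in unnamed macrophages and Cd209a DC-like cells. Within 5 classes of the Lyz2Cre/+.Egr2fl/fl mice it was 0.995, from 0.880 in neutrophil-like cells to 1.17 in unnamed macrophages. In the ungated cells, which these means leave out, the ratio was 0.833 (0.825 to 0.840) and 0.988, and 31 of 84 members were at least 20% lower in the Egr2fl/fl mice, where 21.0% of genes were. The neutrophil-like cells were thus lower on CDA-HFD in both genotypes. Gene by gene within classes, 3 members of 87 passed the upper limit and 8 the lower in Egr2fl/fl mice, where 33.2% of all genes passed either limit, and 4 and 4 of 90 in Lyz2Cre/+.Egr2fl/fl mice, where 34.2% did. Sdhaf1 passed the upper limit in both genotypes.

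**Figure D5:**
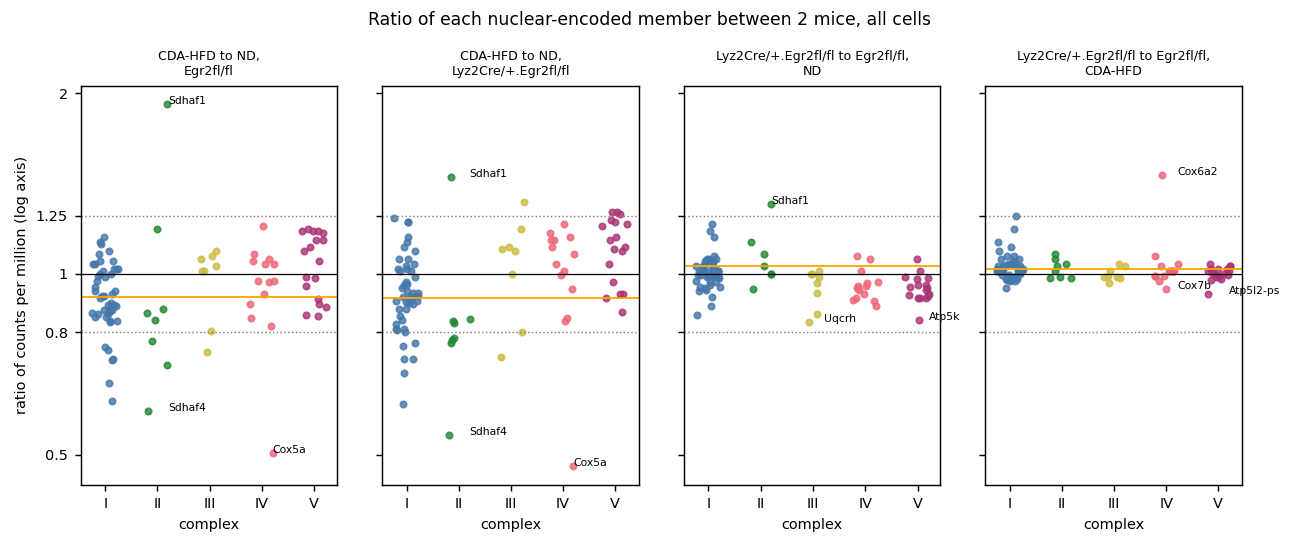
Ratio of CPM between 2 mice over all cells for each nuclear-encoded member with at least 500 counts in the 2 mice, by complex (log axis), for the diet contrasts (left) and the genotype contrasts (right); dotted lines mark 25% higher and 20% lower and the orange line the median of all genes. Cox5a (0.504 and 0.478) and Sdhaf4 (0.591 and 0.540) lie lowest in the diet panels and Sdhaf1 (1.92 and 1.45) highest. In the genotype panels 1 member each lies past the dotted lines, Sdhaf1 (1.31) on ND and Cox6a2 (1.46) on CDA-HFD.

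Cox5a had the lowest diet ratio of all members, with 884 (874 to 895), 938 (927 to 950), 445 (441 to 450) and 449 (444 to 453) CPM over all cells. The ratios were 0.504 (0.496 to 0.512) and 0.478 (0.471 to 0.486). Within classes the ratio lay between 0.706 and 1.12 in Egr2fl/fl mice, lowest in Xcr1 DC-like cells, and between 0.994 and 1.38 in Lyz2Cre/+.Egr2fl/fl mice. Thus the ratios over all cells lay below those within each named class shared by both diets. In the ungated cells Cox5a was at 573, 529, 422 and 419 CPM, with ratios of 0.736 (0.698 to 0.777) and 0.793 (0.732 to 0.861). The Kupffer cell-like cells, in which Cox5a was highest, had too few cells on CDA-HFD for this comparison. Without Cox5a, which was singled out after its value was seen, the ratio of complex IV was 1.02 (1.01 to 1.02) and 1.06 (1.05 to 1.07) instead of 0.940 and 0.966, and that of all members 0.983 (0.980 to 0.986) and 1.03 (1.02 to 1.03). Cox4i1 had the opposite direction, with ratios of 1.20 and 1.21. It was at 1339, 1432, 1258 and 1268 CPM in Ly6Chi monocyte-like cells and at 852 and 864 in Kupffer cell-like cells on ND, and within classes its geometric mean ratio was 1.05 and 0.996.

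Complex II was the complex with the lowest diet ratio, 0.827 (0.813 to 0.840) and 0.810 (0.796 to 0.823) in sum. Sdha, the flavoprotein that oxidizes succinate, was at 103, 112, 88.7 and 87.2 CPM and Sdhb, the iron-sulfur subunit, at 202, 208, 177 and 174. Sdhc, a membrane anchor, was at 100, 101, 77.3 and 83.4 CPM, and Sdhd, the other membrane anchor, at 146, 137, 102 and 105. Each of the 4 subunits was lower in both CDA-HFD mice, with ratios of 0.861 and 0.782, 0.875 and 0.835, 0.772 and 0.829, and 0.704 and 0.767. With TMM these ratios are multiplied by 1.11 and 1.12 and stay under 1. The mice did not overlap in any of the 4 subunits. Within classes, the ratio of Sdhd was under 1 in 7 of 7 classes of the Egr2fl/fl mice (geometric mean 0.756, 0.509 to 0.924) and in 4 of 5 of the Lyz2Cre/+.Egr2fl/fl mice (0.807, 0.651 to 1.08), with 153, 158, 122 and 120 CPM in Ly6Chi monocyte-like cells. Sdha, Sdhb and Sdhc had within-class means of 0.996, 0.990 and 1.02 in Egr2fl/fl mice and 0.828, 0.946 and 0.897 in Lyz2Cre/+.Egr2fl/fl mice.

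Among the 4 assembly factors of complex II, Sdhaf4 and Sdhaf1 differed in opposite directions. Sdhaf2 was lower in both CDA-HFD mice, and Sdhaf3 passed the lower limit only in the Lyz2Cre/+.Egr2fl/fl mice. Sdhaf4 was at 41.2, 46.8, 24.3 and 25.2 CPM, with ratios of 0.591 (0.551 to 0.633) and 0.540 (0.504 to 0.578). In Ly6Chi monocyte-like cells it was at 29.3, 44.9, 18.3 and 17.4 CPM and in Cd209a DC-like cells at 35.7, 49.9, 22.0 and 32.0, lower in both CDA-HFD mice in each class, whereas Ly6Clo monocyte-like cells had 32.8, 13.7, 19.5 and 15.8. Within 5 classes of the Lyz2Cre/+.Egr2fl/fl mice the mean ratio of Sdhaf4 was 0.950 (0.388 to 3.96), above 1 in 2 of them. Sdhaf1 was at 15.8, 20.8, 30.4 and 30.1 CPM, with ratios of 1.92 (1.75 to 2.12) and 1.45 (1.33 to 1.59), and was higher on CDA-HFD in 7 of 7 classes of the Egr2fl/fl mice but in 3 of 5 of the Lyz2Cre/+.Egr2fl/fl mice. In neutrophil-like cells Sdhaf1 was at 4.35, 9.20, 25.9 and 27.9 CPM, both CDA-HFD mice above both ND mice. In Ly6Chi monocyte-like cells it was at 8.97, 49.2, 29.8 and 26.6 CPM, where the ND mice lay on either side of the CDA-HFD mice.

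Complex I was at a diet ratio of 0.932 and 0.962 in sum. Among its members with low ratios were the assembly factor Ndufaf1, at 10.6, 10.5, 6.55 and 6.39 CPM (ratios 0.615 and 0.607), Ndufaf4, another assembly factor, at 22.9, 23.7, 15.1 and 18.0, and the accessory subunits Ndufa5 at 66.4, 68.2, 47.8 and 46.6 and Ndufab1, which is also the mitochondrial acyl carrier protein, at 127, 135, 94.9 and 97.4. Within classes the mean ratio of Ndufa5 was 0.842 and 1.10 and that of Ndufab1 0.919 and 0.835. Ndufaf4 was at 0.506 within classes of the Lyz2Cre/+.Egr2fl/fl mice. The 12 assembly factors of complexes I and II summed to 0.910 and 0.858, and with TMM this sum stays under 1 only in the Lyz2Cre/+.Egr2fl/fl mice. Ndufa5 and Ndufab1 were also among the genes higher in Kupffer cell-like cells, at 74.9 and 77.1 CPM and at 135 and 151 CPM on ND, against 41.9 and 35.3 and 92.7 and 61.0 CPM in Ly6Chi monocyte-like cells. Ndufb4, an accessory subunit, was at 116, 116, 88.0 and 88.7 CPM (0.756 and 0.766). Ndufa6, the complex I gene with the most counts over the 4 mice, was at 306, 270, 317 and 336 CPM, so that its ratio was 1.04 in Egr2fl/fl and 1.24 in Lyz2Cre/+.Egr2fl/fl mice. The core subunits Ndufv1 (1.15 and 1.13) and Ndufs7 (0.834 and 0.826), which carry the flavin and an iron-sulfur cluster, went in opposite directions.

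Complex III was at 0.979 and 1.06 in sum, again with members on both sides. Uqcrb, which helps to form the ubiquinone site, was at 330, 332, 244 and 242 CPM (0.740 and 0.728), and Uqcrh at 563, 469, 614 and 617 (1.09 and 1.32). Uqcrb was at 385 and 381 CPM in Kupffer cell-like cells and at 252, 233, 246 and 248 in Ly6Chi monocyte-like cells, in which the 4 mice hardly differed, and its within-class mean ratio was 1.03 and 1.02. Uqcrh had the reverse pattern, 472 and 400 CPM in Kupffer cell-like and 834, 876, 785 and 761 CPM in Ly6Chi monocyte-like cells, and within-class means of 0.935 and 0.996.

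Complex V was the complex with a diet ratio above 1 in both genotypes, 1.03 (1.03 to 1.04) and 1.09 in sum. Atp5c1, the central stalk subunit that rotates inside the catalytic head, was at 202, 184, 235 and 233 CPM, Atp5e, another central stalk subunit, at 363, 344, 433 and 438, and Atp5l, a membrane subunit, at 337, 311, 397 and 396. Both CDA-HFD mice lay above both ND mice in each, with ratios of 1.17 and 1.26, 1.19 and 1.27, and 1.18 and 1.27. Atp5h of the peripheral stalk, the complex V gene with the most counts over the 4 mice, was at 527, 485, 554 and 558 CPM. Atp5o (0.850 and 0.864) and Atp5j (0.853 and 0.911), also of the peripheral stalk, were lower on CDA-HFD, but with TMM Atp5j was so only in the Egr2fl/fl mice. In Kupffer cell-like cells on ND Atp5e was at 292 and 308 CPM and in Ly6Chi monocyte-like cells at 486, 470, 462 and 465, where both CDA-HFD mice lay slightly below the ND mice, within overlapping intervals.

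Genes of the mitochondrial genome had lower levels on CDA-HFD in most cases by total counts, but not with TMM. All 13 were under 1 in Egr2fl/fl mice, with a median ratio of 0.907, and 9 of 13 in Lyz2Cre/+.Egr2fl/fl mice, with a median of 0.917. mt-Nd6, encoded on the other strand from the rest, had 37.2, 34.6, 22.7 and 27.4 CPM and mt-Cytb, the complex III subunit, 1918, 2038, 1661 and 1711. The complex I genes of the mitochondrial genome were at 0.897 and 0.900, those of complex IV at 0.939 and 1.03 and those of complex V at 0.977 and 0.999. The 2 rRNAs together were higher, 1.29 and 1.17, as was mt-Rnr2 with 1413, 1354, 1928 and 1642 CPM. Within classes, the mt- sum was at 0.921 and 0.996.

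Between genotypes, few members passed the limits of size. On ND the Lyz2Cre/+.Egr2fl/fl to Egr2fl/fl ratio of the sum was 0.971 (0.968 to 0.975) over all cells and 0.969 within 6 classes, from 0.867 in unnamed macrophages to 1.02 in Kupffer cell-like and Ly6Clo monocyte-like cells, and 0.858 in the ungated cells. On CDA-HFD it was 1.01 (1.01 to 1.01) over all cells and 1.01 within 10 classes, from 0.967 in moKC-like to 1.09 in neutrophil-like cells. Between the ND mice, neutrophil markers were 2.15, hepatocyte markers 1.58 and endothelial markers 1.48 times as high in the Lyz2Cre/+.Egr2fl/fl mouse, and T or NK cell markers were at 0.583, erythroid at 0.747 and B cell markers at 0.772. Between the CDA-HFD mice, endothelial markers were at 1.72, Kupffer cell markers at 1.59 and the dissociation and stress list at 0.724, and the part of these levels was not tested. By TMM both ratios over all cells were under 1, 0.942 and 0.989, so the direction on CDA-HFD depended on the scaling. Of 91 members 1 was at least 25% higher and 0 were at least 20% lower on ND, where 9.41% and 5.13% of 8653 genes were. On CDA-HFD the numbers were 1 and 0 of 97 members, and 5.08% and 3.16% of 10860 genes. TMM gave the same counts of members past these limits, while the members above 1 went from 36 to 19 of 91 on ND and from 61 to 36 of 97 on CDA-HFD. Within classes, 4 of 87 members passed the upper limit and 2 the lower on ND, against 25.3% of all genes in either direction, and 0 and 1 of 94 on CDA-HFD, against 11.3%. In hLAM-like cells, where Egr2 was at 59.8 CPM in the Egr2fl/fl and 12.2 CPM in the Lyz2Cre/+.Egr2fl/fl mouse, the ratio of the nuclear sum was 0.976 (0.970 to 0.982), and in Kupffer cell-like cells on ND, with Egr2 at 5.38 and 1.02 CPM, it was 1.02 (1.02 to 1.03).

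Single genes had the following genotype ratios. On ND the highest were those of Sdhaf3 (5.78 and 9.34 CPM, 1.62), Cox6a2 (1.39, from 0.905 and 1.26 CPM) and Sdhaf1 (1.31, 1.16 to 1.48), of which Sdhaf3 and Cox6a2 had under 500 counts in these mice. The lowest were Uqcrh (563 and 469 CPM, 0.833), Atp5k (43.7 and 36.6, 0.837) and Ndufb1-ps (91.0 and 77.8, 0.854). On CDA-HFD Cox6a2 was again higher, while the others had ratios near 1, with Sdhaf3 at 1.06, Sdhaf1 at 0.989, Uqcrh at 1.01, Atp5k at 1.04 and Ndufb1-ps at 1.02. The highest on CDA-HFD were Cox6a2 (2.57 and 3.76 CPM, 1.46), Ndufaf5 (2.83 and 3.53 CPM) and Ndufaf4 (15.1 and 18.0, 1.19), and among the lowest were Atp5l2-ps (9.21 and 8.52 CPM, 0.925) and Cox7b (342 and 323, 0.944). Whether genotype ratios differed between diets was not tested.

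Other genes of the pathway were counted by the same limits, which 18.8% and 19.1% of all genes passed at the upper and 32.7% and 33.6% at the lower side. Regulators of mitochondrial biogenesis summed to 0.873 and 0.895, with 0 and 1 past the upper limit of 25% and 5 of 13 and 3 of 12 past the lower limit of 20%. Ppargc1b, a coactivator of ERR and NRF1, had diet ratios of 0.371 and 0.408, with 11.8 CPM in Kupffer cell-like and 3.91 in Ly6Chi monocyte-like cells of all mice together, and Tfam, which packs mitochondrial DNA, at 27.6, 27.9, 21.4 and 23.9. Assembly factors outside the prefixes were at 0.803 and 0.834, with 18 and 17 of 29 past the lower limit and 0 past the upper, among them Tmem70, an assembly factor of ATP synthase, at 37.2, 39.9, 18.4 and 19.4 CPM. Electron carriers and entry points were at 0.958 and 0.921, with a median ratio of 0.835 and 0.861. Of 16 genes, 3 and 2 passed the upper limit and 5 and 6 the lower. Coq7 of ubiquinone synthesis was at 23.5, 29.0, 10.9 and 9.75 CPM and Coq10b, a ubiquinone-binding protein, at 25.1, 19.5, 61.4 and 49.4. TCA cycle genes were at 0.985 and 0.967, with 1 and 3 of 15 past the lower limit. Genes of exchange and uncoupling were at 1.15 and 1.12, with a median ratio of 0.997 and 1.05, and 1 of 8 past the upper limit, the uncoupling protein Ucp2 with 886, 934, 1270 and 1281 CPM. The sum of this list was higher by less than Ucp2 alone was. The 78 genes of the mitochondrial ribosome were at 0.950 and 0.949, with 4 and 6 higher and 15 and 15 lower by these limits, while the cytosolic ribosome was at 1.34 and 1.45, with 76 and 81 of 88 genes past the upper limit. With all mice pooled, the cytosolic ribosome was at 91858 CPM in Kupffer cell-like, 178551 in Ly6Chi monocyte-like and 56946 in neutrophil-like cells. The other assembly factors were at 1203, 968 and 821 CPM in these classes. The part of cell make-up in the ratios of the lists was not tested. With TMM the other assembly factors stay under 1 and the cytosolic ribosome genes above 1 in both genotypes, while, leaving aside the exchange genes, the direction of the remaining lists depends on the scaling in at least 1 genotype.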

How the data were processed

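The mRNA counts and the hashtag counts were analysed as the authors deposited them: raw counts per gene and cell barcode from a BD Rhapsody and TAS-Seq 3′ library, mapped to GRCm38. The submitters' processing notes name Seurat 4.1.1 and R 4.2.1. The sources used here do not say if counts were collapsed to molecules, so intervals cover counting error only. Barcodes that the authors' hashtag calls mark as doublets (1392) were left out. Doublets within a mouse were not looked for. Cells with more than 25% mitochondrial counts (10) were left out, which left 15384 cells of 3115 to 86395 counts each, and no barcode was shared between mice. In 34 genes, none of them a member or mt- gene, low values had been set to 0. The 7 hashtag columns of no mouse were not used.

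Counts were summed per mouse and class and divided by the total to give CPM, with exact Poisson intervals, and exact binomial intervals for ratios. Classes were gated on marker genes by a scoring rule chosen after the files were seen. Within-class ratios are geometric means over named classes with at least 50 cells in both mice. Genes with at least 500 counts in the 2 mice were counted by size. The members and gene lists were chosen with earlier results of these data known. Named genes were the member with the highest CPM of each complex, the 3 highest and 3 lowest ratios per contrast, the 5 widest and 5 narrowest ranges over classes, isoforms, Sdha to Sdhd and the mt- genes. Other genes were named after their values were seen. A member that the rule names is not reported here. Alternatives were TMM scaling (edgeR 4.0.16), other cell filters, gates and clusters (leidenalg 0.10.2), other totals, and the mean over cells. Scripts ran in Python 3.11.15 with numpy 2.4.6, pandas 2.3.3 and scipy 1.17.1 and were tested on simulated data.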

Additional observations from a re-analysis of the deposited data

How the results depend on the processing

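No paired analysis was possible because each group is 1 mouse, and for the same reason no replicate could be left out. Sums kept their values with at most 10% mitochondrial counts, with every row of the prefixes and with subunits only. For the diet ratio of the nuclear sum (Egr2fl/fl, then Lyz2Cre/+.Egr2fl/fl), TMM gave 1.06 and 1.12 over all cells and 1.00 and 1.13 within classes. The mean over cells gave 0.921 in Egr2fl/fl mice and, within classes, 1.01 in Lyz2Cre/+.Egr2fl/fl mice. Cells with at least 90% of hashtag counts on their own hashtag gave 0.970 and 1.00 over all cells and 0.977 and 0.977 within classes, graph clusters 0.933 and 1.02 within classes, and a stricter gate 0.955 and 1.01. For the genotype ratio (ND, then CDA-HFD), TMM gave 0.942 and 0.989 over all cells and 0.941 and 0.994 within classes. The mean over cells gave 0.955 and 1.04, and 0.984 and 1.02 within classes. The hashtag limit gave 0.977 over all cells and 1.000 within classes on ND, and graph clusters 1.02 within classes on CDA-HFD.

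The ratio of neutrophil-like cells to the other classes (in the order of the 4 mice) was 0.644, 0.601, 0.518 and 0.602 with graph clusters and 0.630, 0.618, 0.493 and 0.547 with a stricter gate. On CDA-HFD it was 0.499 and 0.545 as a mean over cells and 0.507 and 0.556 without mt- genes in the total. Divided by the median gene it was 1.23, 1.14, 0.810 and 0.875, which turns the direction on ND. Among genes with at least 10000 counts the median member was below the median gene in each mouse. The Kupffer cell-like to other ratio of Cox5a was 2.81 and 3.07 as a mean over cells, 2.53 in the ND Egr2fl/fl mouse when divided by the median gene, and 2.71 in the ND Lyz2Cre/+.Egr2fl/fl mouse with graph clusters. Of 140 ratios of named members, 84 moved beyond their counting interval with TMM, 52 as a mean over cells and 19 with the hashtag limit, and 0 with at most 10% mitochondrial counts. The cause was not tested. The alternatives for the neutrophil-like and Cox5a ratios and the sums without Cox5a were chosen after seeing the data.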
